A study of Mus musculus with 6 samples.

Results

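The genes described here encode the proteins of the cytosolic ribosome. They were taken as the protein-coding mouse genes whose symbol is Rpl or Rps followed by a number, together with Rplp0, Rplp1, Rplp2 and Rpsa, leaving out S6 kinases, pseudogenes and Rps19bp1. The rule found 88 such genes in the RefSeq annotation, and 85 of them were among the 14883 genes of the deposited table. The 85 comprised 51 genes of the large (60S) and 34 of the small (40S) subunit. All 77 canonical genes were present, 46 large and 31 small, along with 8 of 11 copies (paralogs and retrogenes). Of these 85 genes, 83 passed the filter on low counts and were tested. Rpl32l and Rps23rg1 did not pass: Rpl32l had 6, 8 and 8 counts in the stretched libraries and 15, 3 and 11 in the static libraries, and Rps23rg1 had 5, 0 and 0 counts in the stretched and 0, 4 and 2 in the static libraries. Rpl3l, Rpl10l and Rpl39l were not analysed here.

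The RNA came from the mouse melanoma line B16F10luc2, with 3 libraries of cells that had been cyclically stretched for 24 h and 3 of static cells. Stretched cells were elongated by 15% equally in both directions of the plane, at 15 cycles per min with equal times of stretch and release. Both groups grew on the same kind of elastic-bottomed plate in DMEM with 10% FBS, so the static cells share the plate and medium. Whether replicates are separate cultures is not stated in the labels, and p-values therefore cover no more than the spread among the 6 samples, possibly technical.

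A ribosome joins ribosomal RNAs with a fixed set of proteins, nearly all present as a single copy, and most of these proteins are needed for the subunit to be built at all. Their mRNAs are among the most abundant in dividing cells and typically begin with a 5′ terminal oligopyrimidine (TOP) tract, a cytidine followed by pyrimidines, through which mTORC1 signalling and the binding protein Larp1 control their translation and stability. Because the proteins are made in matched amounts and unassembled ones are degraded, mRNA levels alone do not give the number of ribosomes.

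Total counts per library ran from 19469286 to 36351400. All 7 melanocyte markers were in the table, with sums of 1.986e+04 to 2.045e+04 CPM (counts of a gene per 1e6 counts of its library, with TMM scaling) in stretched libraries and 2.241e+04 to 2.479e+04 in static libraries. Of the melanocyte markers Mitf was higher under stretch (log2 fold change 0.37), and Tyrp1, Pmel and Dct were lower (-0.31, -0.29 and -0.09). Of other cell types, 3 of 4 fibroblast markers were present, summing to 10.75 to 13 CPM in stretched libraries and 7.078 to 11.21 CPM in static libraries. The leukocyte marker Cd68 stayed at or below 1.33 CPM and the endothelial marker Pecam1 at or below 0.589 CPM in every library, and none of 3 keratinocyte markers was in the table. Whether these markers bear on the ribosomal protein genes was not tested. In bulk RNA, fewer cells of a type and less RNA per cell cannot be told apart.

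The bases around the annotated start are shown for 4 genes that were higher and 4 that were lower under stretch. They were the 4 largest called changes in each direction among genes with a single RefSeq promoter entry. The annotated start is where a TOP tract would be read, but the first base of the mRNA was not measured in these cells. Each window holds 15 bases before and 15 from the annotated start on, from RefSeq (GRCm38.p6). Capitals mark the start base and, where that base is C, the unbroken pyrimidines that follow it.
Rpl35 (higher; chr2:39005117-39005146, minus strand): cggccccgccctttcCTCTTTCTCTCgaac
Rpl31 (higher; chr1:39367836-39367865, plus strand): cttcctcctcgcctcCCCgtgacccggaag
Rpl36a (higher; chrX:134585639-134585668, plus strand): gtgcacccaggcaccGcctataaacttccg
Rps25 (higher; chr9:44407699-44407728, plus strand): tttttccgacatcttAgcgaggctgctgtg
Rplp0 (lower; chr5:115559452-115559481, plus strand): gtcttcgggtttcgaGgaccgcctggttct
Rpl10 (lower; chrX:74270801-74270830, plus strand): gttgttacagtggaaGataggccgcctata
Rplp2 (lower; chr7:141447636-141447665, plus strand): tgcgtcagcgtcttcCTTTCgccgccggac
Rps9 (lower; chr7:3704026-3704055, plus strand): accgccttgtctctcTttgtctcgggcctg

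Long pyrimidine runs at the annotated start were seen in both directions, 11 bases in Rpl35 and 5 in Rplp2, and single start bases other than C were also seen in both. A promoter entry existed for 63 of the 83 tested genes. A C at the annotated start followed by 4 pyrimidines was found in 14 of these 63 (22.2%), against 304 of 9892 tested genes with an entry (3.07%). It was found in 7 of 28 genes higher under stretch, 1 of 8 lower genes and 6 of 27 not called. A C followed by 6 pyrimidines anywhere from 10 bases before to 15 after the start, a wider window added after the first counts were seen, was found in 46.0% of the ribosomal protein genes and 14.4% of tested genes. In the wider window the share was 46.4% of the higher, 37.5% of the lower and 48.1% of the genes not called. The letters CCGGAAG, on either strand of the window from 250 bases before to 50 after the start, occurred in 39.7% of the ribosomal protein genes and 20.8% of tested genes. They occurred in 14 of the 28 higher, 3 of the 8 lower and 8 of the 27 genes not called. The letters GCCATCTT occurred in 9.52% of the ribosomal protein genes and 5.45% of tested genes, and in 10.7% of the higher, 12.5% of the lower and 7.41% of the genes not called. None of these differences by direction was tested. A match in letters is a description of the window and not a tested site.

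Ribosomal protein mRNAs took a slightly larger share of all counts in stretched cells. The share was 4.674%, 4.676% and 4.866% in stretch replicates 1, 2 and 3, and 4.478%, 4.529% and 4.467% in static replicates 1, 2 and 3. Every stretched library lay above every static one, and the means were 4.74% ± 0.11 under stretch and 4.49% ± 0.0332 in static cells (SD, n = 3 each), a ratio of 1.05. The large subunit genes summed to 2.81% ± 0.0619 in stretched and 2.63% ± 0.0145 in static libraries, and the small subunit genes to 1.93% ± 0.0486 in stretched and 1.86% ± 0.0189 in static libraries. The ratio of large to small subunit counts was 1.455, 1.452 and 1.446 under stretch and 1.423, 1.41 and 1.421 in static cells, so these groups did not overlap either. No test was made of these sums. They are shares of unscaled counts, and TMM factors were 1.02 in each stretched library and 0.966 to 0.993 in static ones. Such sums hold the shift between the groups that TMM scaling takes out. By library size scaling alone, 33.3% of all tested genes were called higher under stretch and 19.4% lower. Stretch replicate 3 had the highest share of the 6 libraries, and its level was the highest of its group in 71 of 83 genes, against 37.8% of all tested genes.

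**Figure D1:**
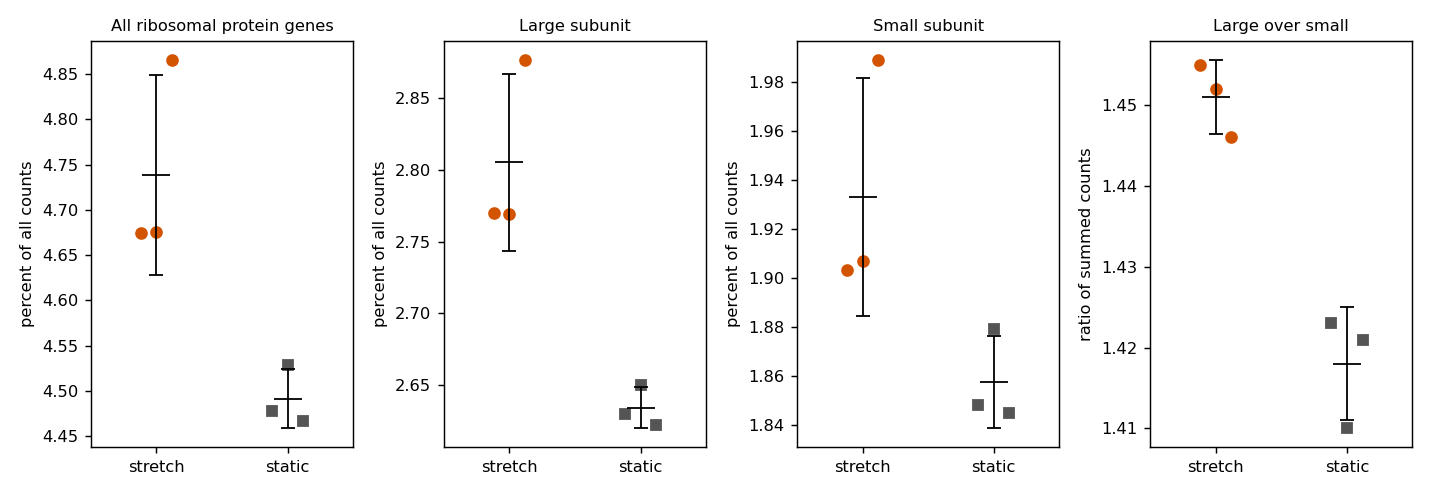
Percent of all counts, without TMM scaling, taken by all ribosomal protein genes, the large subunit and the small subunit, and the ratio of large to small subunit counts. Each point is a library (orange circles, stretch; grey squares, static) with the mean and SD, and the axes do not start at 0; stretch replicate 3 has the highest share at 4.866%, and no stretched library falls below a static one.

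Gene by gene, 39 of the 83 tested genes were higher (47.0%) and 12 were lower (14.5%) under stretch by edgeR's quasi-likelihood test, with the Benjamini-Hochberg adjusted p below 0.05. Among all 12377 tested genes 24.9% were called higher and 25.9% lower. The remaining 32 genes were not called. Without stretch replicate 3, 30 genes were higher and 11 lower. The median log2 fold change was 0.09, against 0.00 over all tested genes, and single values ran from -0.30 for Rplp0 to 0.41 for Rpl35. Changes of this size were small for these libraries: 17.6% of tested genes had a larger absolute log2 fold change than any ribosomal protein gene, and the SD of the log2 fold change was 0.159 over the 83 genes and 0.349 over all tested genes. The 2 groups did not overlap in CPM for 49 of the 83 genes (59.0%), close to the 58.5% of all tested genes. Of all 83 genes, 38 had every stretched library above the static ones and 11 had every one below. Of all 12377 tested genes, 3591 (29.0%) lay above in this way and 3644 (29.4%) below. Against a null of a 1.2-fold change, edgeR's glmTreat called Rpl31 and Rpl35 higher and 0 ribosomal protein genes lower, against 5.49% and 7.38% of all tested genes (12.9% in all). Scaling by library size alone called 55 ribosomal protein genes higher and 9 lower, against 33.3% and 19.4% of all tested genes (52.7% in all).

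Of 50 large subunit genes 25 were higher, 6 lower and 19 not called, with a median log2 fold change of 0.11. Of 33 small subunit genes 14 were higher, 6 lower and 13 not called, with a median of 0.04. The difference between the subunits was not tested.

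**Figure D2:**
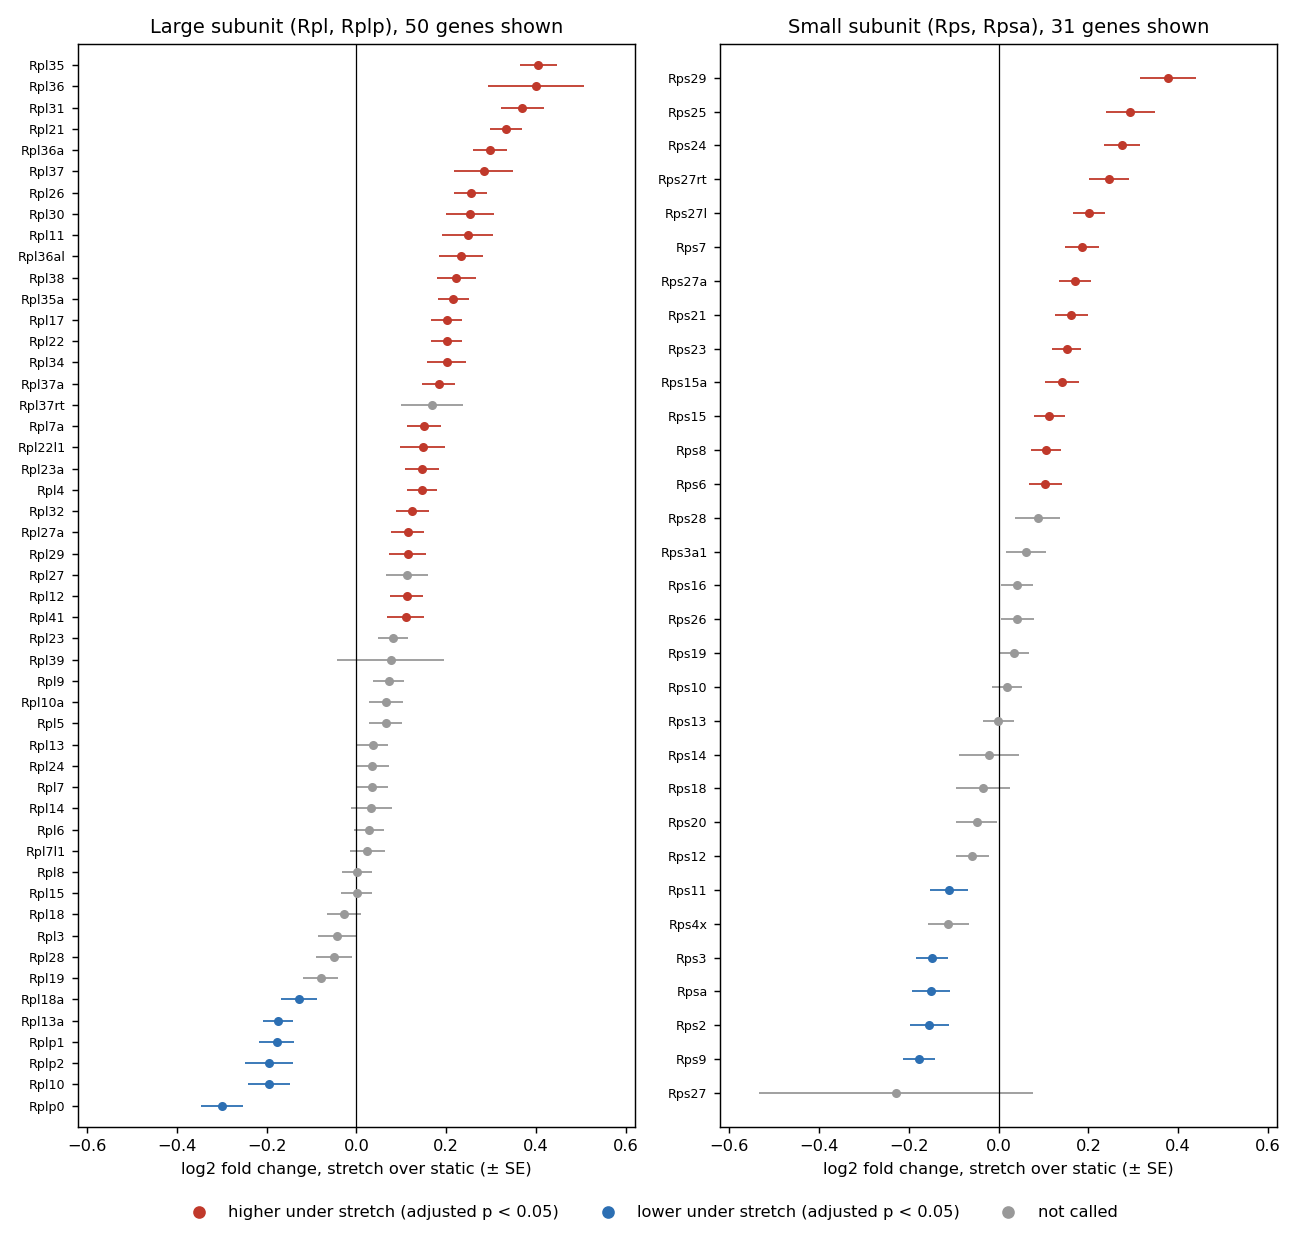
Log2 fold change (stretch over static, with SE) of tested genes, ranked within the large subunit (50 genes) and the small subunit (all but 2 of 33 genes). Red points were called higher, blue points lower and grey points not called in edgeR's quasi-likelihood test; Rplp0 lies lowest at -0.30 and Rpl35 highest at 0.41, and Rps27 has the widest error.

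The counts of higher genes depended on a correction for GC content and transcript length. Ribosomal protein mRNAs are short, and those that were higher had a median annotated length of 570 nt and 50.2% GC, those that were lower 981 nt and 54.3%, and those not called 777 nt and 51.8%. Over the 83 genes the log2 fold change correlated with log2 length at r = -0.298 and with GC content at r = -0.188. Over the 11782 tested genes of known length and GC these values were 0.051 and -0.237, and over the 1723 of them under 1400 nt the correlation with length was -0.118. These are correlations across genes of the same 6 libraries, and genes are not independent replicates. Lengths are those of 1 annotated transcript per gene, and the correlations, length classes and offset rest on that choice. The annotated transcript spans 5130 nt for Rps15a, 3706 nt for Rps20 and 2045 nt for Rpl5. Of the 16 ribosomal protein genes with transcripts under 500 nt, 11 were higher and 1 lower (median log2 fold change 0.20), and of all 88 tested genes in that class 36 were higher and 9 lower (0.18). From 500 to 700 nt, 12 of 21 ribosomal protein genes were higher and 1 lower (0.11), against 62 higher and 36 lower of all 193 tested genes in the class (0.06). From 700 to 1000 nt, 11 of 26 were higher and 5 lower (0.06), against 107 higher and 123 lower of 499 (0.00). At 1000 nt and more, 5 of 20 were higher and 5 lower (0.03), against 2743 higher and 2990 lower of 11002 (0.00). The medians of the ribosomal protein genes were thus above those of all tested genes in each of the 4 length classes, least so under 500 nt. The classes of all tested genes include the ribosomal protein genes.

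An offset per library was used to remove smooth trends in GC content and length. The trends were fitted in each library over all tested genes of known length and GC, ribosomal protein genes included. The offset may therefore take out part of the group difference of the ribosomal protein genes themselves, and how much was not tested. With it 23 of the 83 ribosomal protein genes were higher and 13 lower, against 23.7% and 25.3% of all tested genes. The share of higher genes was thus closer to that of all tested genes than without the offset (47.0% against 24.9%). With the offset the median log2 fold change was 0.04, with 0.05 for the large and 0.02 for the small subunit. Of the 39 genes higher without the offset 22 were still called higher, and of the 12 lower genes 10 were still called lower. Rps10 was called higher with the offset alone, and Rps12, Rps20 and Rps4x lower. The call of Rps20 rests on an annotated transcript of 3706 nt and 41.3% GC. Whether the trends in length and GC come from the cells or from the libraries was not tested.

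**Figure D3:**
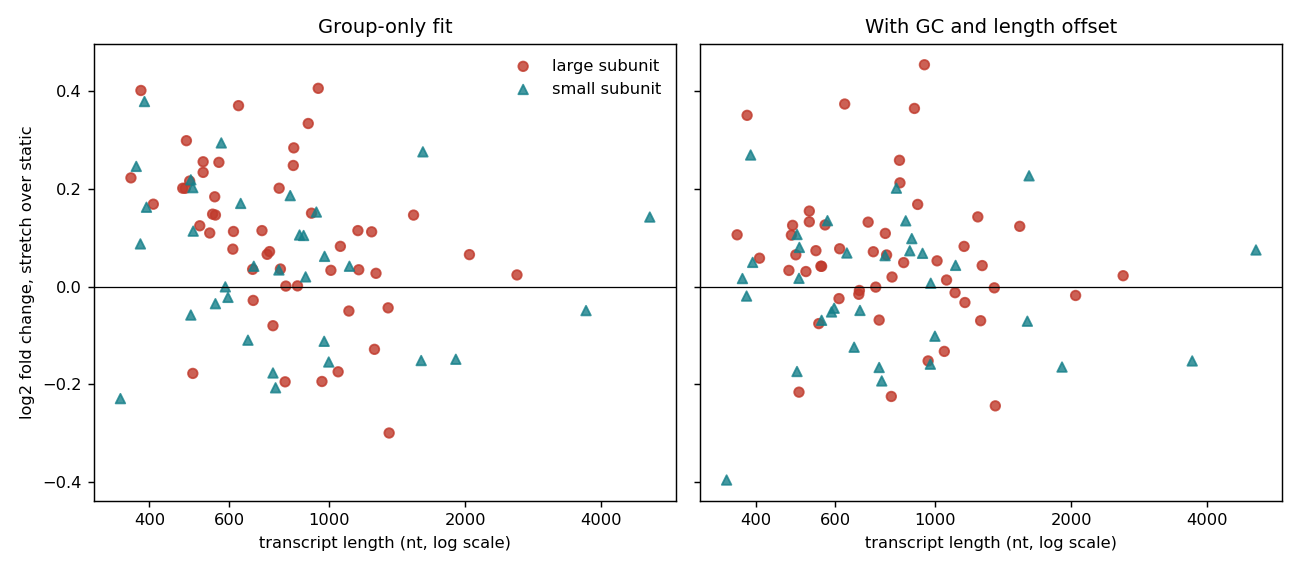
Log2 fold change of the 83 tested genes (stretch over static) against annotated transcript length on a log axis, without (left) and with (right) the offset for GC content and length; red circles are large and teal triangles small subunit genes. The correlation with log2 length is -0.298 on the left and -0.0918 on the right.

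The lower genes included 3 of the 4 that encode the ribosomal stalk. The stalk is the flexible arm of the large subunit that recruits translation GTPases such as the elongation factors. Among all 83 ribosomal protein genes 14.5% were lower, and among all tested genes 25.9%. The stalk holds only 4 genes, and its share was not tested against these. Rplp0 (Entrez Gene 11837; chromosome 5, 115559467 to 115563729 in GRCm38.p6) encodes the stalk base on which the acidic proteins sit. It had 1739, 1650 and 1740 CPM in stretch replicates 1, 2 and 3, and 2052, 2288 and 1973 CPM in static replicates 1, 2 and 3. All stretched libraries were below all static ones, and among the static libraries replicate 2 was the highest. The fitted change was 1.23-fold lower (log2 fold change -0.30, SE 0.0477, adjusted p = 0.0001085, edgeR). Rplp0 is often used as a reference gene in quantitative PCR.

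Rplp1 and Rplp2 encode the acidic proteins that bind Rplp0 as dimers. Rplp1 had 1224, 1180 and 1277 CPM under stretch and 1392, 1431 and 1340 CPM in static cells, with no overlap (log2 fold change -0.18, SE 0.0385, adjusted p = 0.00138, edgeR). Rplp2 had 366.6, 344.4 and 374.4 CPM under stretch and 455.6, 402.4 and 383.6 CPM in static cells (log2 fold change -0.19, SE 0.0538, adjusted p = 0.007356, edgeR). For Rplp2 the gap between the groups was narrow, and without static replicate 1 or stretch replicate 2 the edgeR adjusted p was 0.0586 or 0.0535. Rpl12, which docks at the stalk base, went the other way, with 796.7, 768.4 and 842.8 CPM under stretch and 749.2, 741.1 and 737.7 CPM in static cells (log2 fold change 0.11). The calls of all 4 stalk genes were the same with the GC and length offset, and Rplp2 was not called with library size scaling alone (log2 fold change -0.13, adjusted p = 0.0509, edgeR).

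**Figure D4:**
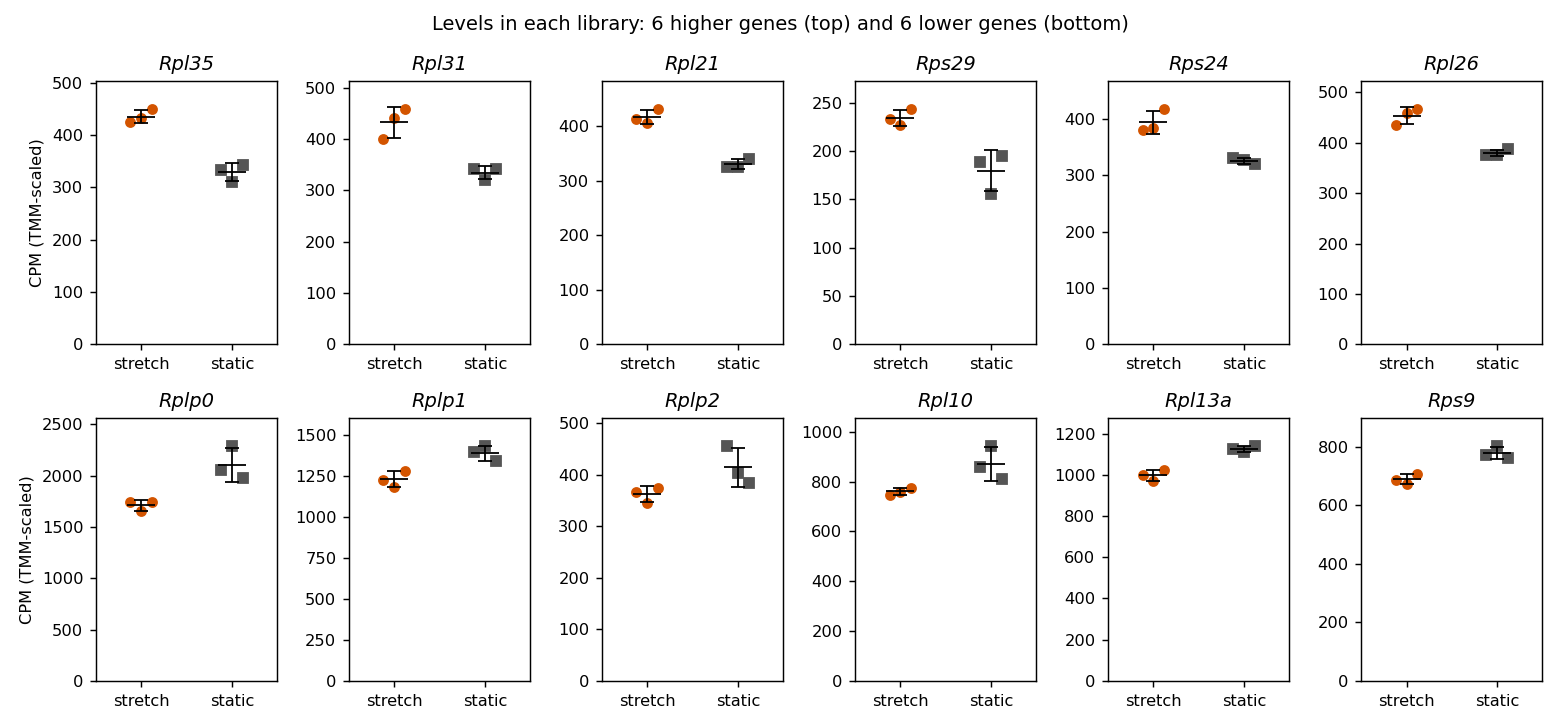
CPM in each library (orange circles, stretch; grey squares, static; bars, mean and SD of 3) for 6 genes that were higher (Rpl35, Rpl31, Rpl21, Rps29, Rps24, Rpl26) and 6 that were lower (Rplp0, Rplp1, Rplp2, Rpl10, Rpl13a, Rps9). In all 12 the groups do not overlap, and the vertical axes start at 0.

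Genes for the proteins around the peptide exit tunnel, through which the new chain leaves the large subunit, were mostly higher. Of 8 such genes 6 were called higher and 0 lower, with a median log2 fold change of 0.17. Among all 83 ribosomal protein genes 47.0% were higher and 14.5% lower, and among all tested genes 24.9% and 25.9%. With the offset 5 of the 8 were higher and 0 lower (median 0.12), against 23.7% and 25.3% of all tested genes. Rpl35 (Entrez Gene 66489; chromosome 2, 39001581 to 39005131), at the rim of the exit where targeting factors dock, had 423.9, 432.4 and 449.1 CPM under stretch and 332.9, 309.3 and 342.6 CPM in static cells. Its stretched libraries all stood well above the static ones, and its 1.32-fold difference was the largest of the 83 genes (log2 fold change 0.41, SE 0.0413, adjusted p = 1.541e-06, edgeR). With the offset it was 0.45. Rpl31 (Entrez Gene 114641; chromosome 1, 39367851 to 39371911), also at the exit rim, had 399.4, 440.5 and 457.7 CPM under stretch and 341.2, 320.1 and 341.5 CPM in static cells (log2 fold change 0.37, adjusted p = 1.359e-05, edgeR). Its groups did not overlap, and a processed copy, Rpl31-ps12, had a log2 fold change of 0.29. Of the 31-base stretches of the Rpl31 transcript, 58.0% also occur in transcripts of other genes, so reads of such copies may have been split.

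Rpl26 averaged 453.7 CPM under stretch and 379.9 CPM in static cells, and Rpl17 averaged 386.2 CPM under stretch and 335.8 CPM in static cells. Both proteins lie at the exit, and both genes were also called higher with the offset. Rpl4, whose loop lines the tunnel, averaged 1388 ± 30.4 CPM under stretch and 1254 ± 21.5 CPM in static cells (SD, n = 3 each). Rpl23a, the docking site of the signal recognition particle and of the nascent chain complex, had a log2 fold change of 0.15, which was 0.04 and not called with the offset. Rpl19 was not called, with a log2 fold change of -0.08. Rpl39, the small protein at the inner tunnel wall, had 150.5, 160.5 and 169.0 CPM under stretch and 124.8, 199.4 and 133.5 CPM in static cells. Static replicate 2 alone lay above the stretched libraries, and without it Rpl39 had a log2 fold change of 0.30 with an edgeR adjusted p of 1.7e-05, against 0.08 with all libraries.

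Rpl5 and Rpl11 form a particle with 5S ribosomal RNA that also binds Mdm2, the ubiquitin ligase of p53. Rpl11 was higher, with 230.4, 252.1 and 276.9 CPM under stretch and 203.9, 209.4 and 224.9 CPM in static cells, and its groups did not overlap (log2 fold change 0.25, SE 0.0564, adjusted p = 0.001979, edgeR). Rpl5 was not called, with 692.0 ± 24 CPM under stretch and 661.4 ± 16.4 CPM in static cells and a log2 fold change of 0.07. By library size scaling alone Rpl5 was called higher, at 0.13 with an edgeR adjusted p of 0.004234.

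Of the other large subunit genes, Rpl21 (Entrez Gene 19933; chromosome 5, 146832890 to 146837032) had 413.9, 406.0 and 431.7 CPM under stretch and 325.9, 326.3 and 340.9 CPM in static cells (log2 fold change 0.33, SE 0.0366, adjusted p = 3.202e-06, edgeR). Both groups were tight and well apart. Rpl36 had a similar fitted change of 0.40, but its groups overlapped. Its CPM was 142.0, 145.5 and 192.9 under stretch and 142.7, 105.8 and 113.1 in static cells, and DESeq2 did not call it (adjusted p = 0.08708). Rpl10, a protein that joins the 60S subunit late and lies near the peptidyl transferase centre, was lower. It had 748.4, 759.5 and 773.5 CPM under stretch and 859.4, 943.4 and 809.0 CPM in static cells (log2 fold change -0.19, SE 0.0466, adjusted p = 0.002836, edgeR). Rpl13a, which in human monocytic cells also acts outside the ribosome to silence inflammatory mRNAs, had 999.3, 969.6 and 1021 CPM under stretch and 1124, 1109 and 1140 CPM in static cells. The groups of Rpl10 and of Rpl13a did not overlap.

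The head of the small subunit clasps mRNA and transfer RNAs together with the body of the subunit. Of 14 genes for head proteins 5 were higher (35.7%) and 2 were lower (14.3%), with a median log2 fold change of 0.04. The shares were 24.9% and 25.9% over all tested genes. With the offset 4 of the 14 head genes were higher and 4 lower, against 23.7% and 25.3% of all tested genes. Rps29 (Entrez Gene 20090; chromosome 12, 69157722 to 69159186), a zinc-binding protein near the mRNA path, had 233.2, 226.8 and 243.5 CPM under stretch and 188.3, 155.8 and 195.5 CPM in static cells. All its stretched libraries were above the static ones (log2 fold change 0.38, SE 0.0627, adjusted p = 0.0001515, edgeR). Rps25, needed by several viral internal ribosome entry sites, had 313.3, 346.5 and 356.9 CPM under stretch and 287.5, 252.2 and 287.9 CPM in static cells. Its log2 fold change of 0.29 was 0.13 with the offset (adjusted p = 0.04937, edgeR). Rps27a and Rps15 were also called higher, at 0.17 and 0.11.

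Rps3, a head protein at the mRNA entry, was lower. It averaged 807.2 ± 15.4 CPM under stretch and 894.6 ± 27.2 CPM in static cells (SD, n = 3 each; log2 fold change -0.15, SE 0.0351, adjusted p = 0.002558, edgeR). Its groups did not overlap, and 8.79% of its 31-base stretches occur in transcripts of other genes.

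Outside the head, Rps24, a protein of the subunit body (Entrez Gene 20088; chromosome 14, 24490678 to 24496960) had 381.0, 385.1 and 417.8 CPM under stretch and 330.6, 327.2 and 320.0 CPM in static cells (log2 fold change 0.28, SE 0.0396, adjusted p = 4.28e-05, edgeR). Rps9 and Rps2, which with Rps3 line the mRNA entry channel, were both lower. Rps9 had 687.7, 672.7 and 707.2 CPM under stretch and 773.0, 802.4 and 761.7 CPM in static cells (log2 fold change -0.18, SE 0.0353, adjusted p = 0.0007283, edgeR). Rps2 had 1941, 1859 and 1976 CPM under stretch and 2238, 2190 and 2000 CPM in static cells, a narrow gap at static replicate 3 (log2 fold change -0.15). Without stretch replicate 2 or static replicate 1 the edgeR adjusted p of Rps2 was 0.0589 or 0.0617. Rpsa, a small subunit protein first named as a laminin receptor, had 1865, 1883 and 1949 CPM under stretch and 2074, 2253 and 2000 CPM in static cells (log2 fold change -0.15, adjusted p = 0.00782, edgeR). Its groups did not overlap, but with the offset it was -0.07 and not called (adjusted p = 0.1633, edgeR). Rps4x, encoded on the X chromosome, had a log2 fold change of -0.11 (adjusted p = 0.05051, edgeR). It was called by DESeq2, by limma-voom, with the offset and without static replicate 3.

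Per kilobase of annotated transcript, mean levels of the 77 canonical genes had a median of 627.5 CPM under stretch and 598 CPM in static cells. The 3 highest over all libraries were Rplp1 (2620 CPM per kb), Rps2 (2038) and Rpl32 (1668), of which the first and second were lower under stretch and Rpl32 higher. The log2 fold change of Rpl32 was 0.12, and it was not called without stretch replicate 2 (edgeR adjusted p = 0.0526) or 3 (0.0606) or with the offset (0.4657). The 3 lowest of the 83 tested genes were Rps15a (33.65 CPM per kb), Rps27 (46.2) and the paralog Rpl7l1 (71.09). The annotated Rps15a transcript used for its length spans 5130 nt, which sets its low level per kilobase. Across the 83 genes the log2 fold change and the log2 level per kilobase correlated at r = -0.257, and across all 11782 genes of known length at -0.103. With log2 CPM, not divided by length, the correlation across the 83 genes was -0.42. Median CPM in static cells was 328.2 for higher genes, 882.6 for lower genes and 510.4 for those not called. Of the 10 genes with the most CPM, 5 were lower, 1 higher and 4 not called. Whether the level bears on the change was not tested.

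Genes whose human counterparts are mutated in Diamond-Blackfan anaemia, an inherited failure of red cell production, numbered 19, and 10 were higher (52.6%) and 0 lower (median log2 fold change 0.14). The share of higher genes was near the 47.0% of all ribosomal protein genes, above the 24.9% of all tested genes. They include Rpl35, Rpl31, Rps29, Rps24, Rpl26 and Rpl11, described above. With the offset 9 of the 19 were higher and 0 lower, against 23.7% and 25.3% of all tested genes. Rps19, the gene most often affected, was not called, with 482.8 CPM under stretch and 471.7 CPM in static cells.

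Paralogs were compared as the log2 ratio of counts per kilobase within a library, which needs no scaling between libraries. With 3 libraries against 3, the smallest p of the exact permutation test is 0.1, so no pair could reach 0.05. Over the 5 pairs with at least 10 counts in every library, the two-sided exact p ran from 0.3 to 0.8, and was 0.8 for each after Benjamini-Hochberg adjustment over the 5. Rpl36al is a retrogene copy of the X-linked Rpl36a, and its log2 ratio to Rpl36a was 0.71 ± 0.0459 under stretch and 0.78 ± 0.0754 in static cells (SD, n = 3 each; difference -0.06, exact p = 0.3). Both genes of that pair rose, Rpl36a by 0.30 and Rpl36al by 0.23 on the log2 scale. Rpl22l1, which can replace Rpl22 in the 60S subunit, stood at -2.60 ± 0.0461 against Rpl22 under stretch and -2.56 ± 0.122 in static cells. Rpl22 and Rpl22l1 were called higher, at 0.20 and 0.15, and neither was with the offset, where Rpl22l1 was -0.08. The call of Rpl22l1 was also lost, with edgeR adjusted p-values of 0.068 to 0.078, without any one of stretch replicates 2 and 3 and static replicates 1 and 2. Rpl7l1 stood at -3.06 ± 0.0597 against Rpl7 under stretch and -3.05 ± 0.0373 in static cells, and neither gene was called. The pair Rpl37rt and Rpl37, added after the table was seen, stood at -0.18 ± 0.0419 under stretch and -0.07 ± 0.173 in static cells. Of the 31-base stretches of the Rpl37rt transcript 73.8% also lie in Rpl37, so this ratio depends on how shared reads were assigned.

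The Rps27 family shows a limit of these counts. Rps27rt is an intronless copy of Rps27, and their coding sequences are identical at 252 of 252 bases, while the paralog Rps27l differs at 60 positions. The coding sequences without the stop codon, 5′ to 3′, from GENCODE M21 (GRCm38), are shown to make the problem of assigning reads visible, and capitals in Rps27l mark bases that differ from Rps27. Rps27 lies at chr3:90212667-90213648 (minus strand), Rps27rt at chr9:114982366-114982739 (minus strand) and Rps27l at chr9:66944624-66949522.
Rps27 and Rps27rt: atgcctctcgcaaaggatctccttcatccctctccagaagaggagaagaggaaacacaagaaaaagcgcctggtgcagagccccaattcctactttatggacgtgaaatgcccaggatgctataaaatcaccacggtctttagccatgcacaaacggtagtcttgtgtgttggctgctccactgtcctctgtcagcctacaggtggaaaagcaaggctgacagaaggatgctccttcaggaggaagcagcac
Rps27l: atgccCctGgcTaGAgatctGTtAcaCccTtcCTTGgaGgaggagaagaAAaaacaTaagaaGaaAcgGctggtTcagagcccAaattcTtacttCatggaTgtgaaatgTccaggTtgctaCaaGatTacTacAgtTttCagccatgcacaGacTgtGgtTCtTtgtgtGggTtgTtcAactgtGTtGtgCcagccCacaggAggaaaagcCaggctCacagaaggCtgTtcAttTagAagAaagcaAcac

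Of the 31-base stretches of the Rps27 transcript 98.7% also lie in Rps27rt, so a read within them cannot be assigned by sequence. The deposited counts placed most of the pair on the copy. Rps27rt had 205.1, 198.9 and 217.2 CPM under stretch and 185.2, 167.3 and 170.9 CPM in static cells, and Rps27 had 16.7, 10.3 and 15.3 CPM under stretch and 8.37, 30.7 and 14.2 CPM in static cells. Rps27 was thus highest in static replicate 2 and lowest in static replicate 1, and its log2 fold change of -0.23 had an SE of 0.305. Summed, the pair had 221.8, 209.2 and 232.5 CPM under stretch and 193.6, 198.0 and 185.1 CPM in static cells, and the sum did not overlap between groups and was 1.15 times as high under stretch. The log2 ratio of Rps27rt to Rps27 was 3.79 ± 0.334 under stretch and 3.39 ± 1.01 in static cells, and it is uncertain for this reason. Rps27l, a p53 target, shares no 31-base stretch with Rps27, and its log2 ratio to Rps27 was 2.46 ± 0.363 under stretch and 2.10 ± 0.948 in static cells. It had 109.7, 108.9 and 111.0 CPM under stretch and 94.62, 94.24 and 97.36 CPM in static cells, with no overlap (log2 fold change 0.20, adjusted p = 0.0002499, edgeR). With the offset the log2 fold changes of Rps27l and Rps27rt were both 0.02 and not called.

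**Figure D5:**
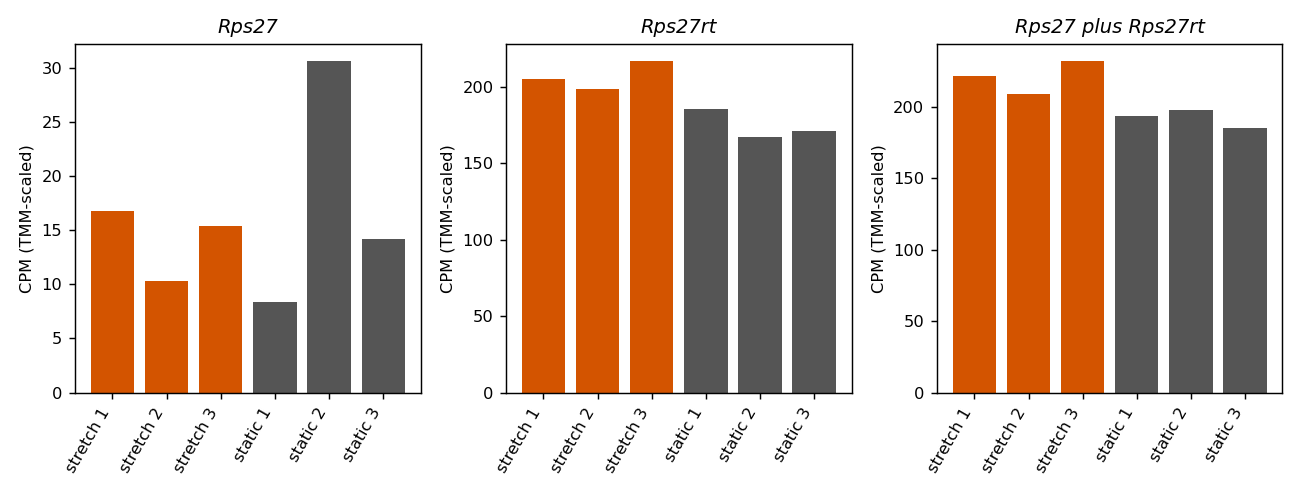
CPM of Rps27, of its identical-coding copy Rps27rt and of their sum in each library (orange, stretch; grey, static). Rps27 has its highest bar, 30.7 CPM, in static replicate 2, where Rps27rt has its lowest, 167.3 CPM, and the sum is steadier across libraries.

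Shared sequence was not restricted to that family. In 55 of the 83 tested genes at least 50% of the 31-base stretches also occur in transcripts of other genes and the median was 59.1%. Of the 321 pseudogene entries that RefSeq lists for Rpl and Rps genes, 8 were in the table. The share of shared stretches and the log2 fold change correlated at r = 0.0365 over the 83 genes.

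Other genes of the pathway were read from lists. Fau, which falls outside the symbol rule and encodes a ribosomal protein fused to a ubiquitin-like protein, was not called, with 281.8 ± 11.1 CPM under stretch and 298.5 ± 7.08 CPM in static cells (SD, n = 3 each) and a log2 fold change of -0.08. With the offset Fau was called lower, at -0.11 (adjusted p = 0.01634, edgeR). Another 17 TOP mRNAs encode translation factors and other proteins, the latter including Npm1, Nap1l1 and Hnrnpa1. Of these 17 mRNAs 4 were higher (23.5%) and 8 lower (47.1%), with a median of -0.09, against 24.9% and 25.9% of all tested genes. The elongation factor Eef2, which binds at the stalk, averaged 3653 ± 66.3 CPM under stretch and 4934 ± 303 CPM in static cells (log2 fold change -0.43, adjusted p = 9.128e-07, edgeR). The poly(A)-binding protein Pabpc1 had a log2 fold change of -0.33. The lower members also included Tpt1, Eef1b2 and Rack1, a protein of the 40S head surface, at -0.27, -0.20 and -0.16. Hnrnpa1, an RNA-binding splicing factor, was higher at 0.46, and Naca, which meets the nascent chain at the tunnel exit, at 0.29. These lower and higher TOP mRNAs kept their direction with the offset, under which 4 of the 17 were higher and 10 lower, against 23.7% and 25.3% of all tested genes.

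Among 23 regulators of TOP mRNAs, mTORC1 components and S6 kinases, 9 were higher (39.1%) and 4 lower (17.4%), against 24.9% and 25.9% of all tested genes. Under the GC and length offset 10 were higher and 5 lower, against 23.7% and 25.3% of all tested genes. Eif4ebp1, a translation repressor that mTORC1 inactivates, averaged 145.5 ± 0.776 CPM under stretch and 260.8 ± 2.89 CPM in static cells (log2 fold change -0.84, adjusted p = 1.264e-10, edgeR). Larp1b averaged 12.4 ± 0.929 CPM under stretch and 27.1 ± 0.675 CPM in static cells (-1.12). Larp1 itself was not called, with 503.8 CPM under stretch and 506.3 CPM in static cells. Deptor, an inhibitor subunit of mTOR complexes, was higher at 0.56, Larp4 at 0.26 and the S6 kinase Rps6kb1 at 0.29. Deptor, Larp4 and Rps6kb1 were still called higher with the offset, at 0.45, 0.09 and 0.14. The other lower genes of this list were Akt1s1 at -0.51 (-0.36 with the offset) and Tsc2 at -0.14.

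Of 23 chaperones and late assembly factors 7 were higher (30.4%) and 5 lower (21.7%), near the 24.9% and 25.9% of all tested genes, with a median log2 fold change of 0.01. Heatr3, which helps to bring Rpl5 into the nucleus, was higher at 0.28, and Ltv1, a 40S assembly factor, at 0.24. Zfp622 and Eif6, which act on the maturing 60S subunit, were lower at -0.35 and -0.19, and Eif6 was not called with the offset (adjusted p = 0.0577, edgeR). Of 14 tested genes for modification of ribosomal proteins and quality control of stalled ribosomes 4 were higher (28.6%) and 3 lower (21.4%), again near the shares of all tested genes. Nemf, which acts on chains stalled on the 60S subunit, was higher at 0.51 and Usp10 at 0.18. Rnf10 and Usp10, a ubiquitin ligase and a deubiquitinase that both act on 40S proteins, went opposite ways, with Rnf10 at -0.30, and the ribosome rescue factor Pelo was lower at -0.26.

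The genes of the mitochondrial ribosome, the most similar set, were read for contrast. Of 78 tested genes 25 were higher (32.1%) and 12 lower (15.4%), against 24.9% and 25.9% of all tested genes. Their median log2 fold change was 0.08, and that of the cytosolic set 0.09. With the offset 22 were higher and 8 lower, with a median of 0.07, and the shares over all tested genes were 23.7% and 25.3%. Mrpl42 and Mrpl18 were among the higher genes, at 0.38 and 0.33, and Mrps6 and Mrpl38 among the lower, at -0.31 and -0.25. The difference between the cytosolic and mitochondrial sets was not tested.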

How the data were processed

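Values in the deposited table are estimated counts by gene, whole numbers that the authors did not scale between libraries. The tool Salmon 1.4.0, which estimates transcript abundance, and the builds GRCm38 and mm10 are listed per the submitters' processing notes, with no stated role. The index, gene summary and strand were not given in the sources used here. All 6 columns were used, each matched to a sample by its description, and every gene had at least 10 counts over the libraries. Entrez Gene numbers were matched to RefSeq symbols (14875 of 14883).

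In edgeR 4.0.16 (R 4.3.3), filterByExpr (minimum count 10) kept 12377 genes, leaving out 2506. TMM factors were 0.966 to 1.02. A quasi-likelihood model of the group alone was fitted to the counts, rounded where needed, with 4 residual degrees of freedom, tests were two-sided, and a call needed an adjusted p (Benjamini-Hochberg) below 0.05. The biological coefficient of variation was 3.6%. Counts were also simulated for 12298 genes, of which only a small part was changed. There 54% of genes changed 1.2-fold and 87.5% of those changed 1.5-fold were recovered, and 0.165% of unchanged genes were called. In the data 50.9% of tested genes were called, which sets another cutoff on p, so these rates do not carry over to the data. Lengths and GC content, from 1 GENCODE M21 transcript per gene, were known for 95.2% of tested genes; the offset used natural splines with 5 degrees of freedom.

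Ribosomal protein genes, lists and tests were chosen with earlier results of these data known. Named genes were, per subunit, the 4 largest called changes and 2 lowest p in each direction, all listed paralogs, Rplp0, Rplp1, Rplp2, Rpsa, Rpl5, Rpl11, the 3 highest and 3 lowest levels per kilobase and every untested gene; from other lists, the 2 lowest p in each direction. Further genes were named after their values were seen, to complete a structural group or list. Alternatives were RLE, upper quartile and library size scaling, TMM without ribosomal protein genes, no count filter or at least 5 CPM in 3 libraries, DESeq2 1.42.0, limma-voom (limma 3.58.1), glmTreat, the replicate number as a block, thinning to 19469286 counts, and each library left out. Results for a few genes are not reported here.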

Additional observations from a re-analysis of the deposited data

How the results depend on the processing

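Under RLE and upper quartile scaling, TMM factors without ribosomal protein genes, other count filters, DESeq2, limma-voom and thinned counts, 39 to 43 ribosomal protein genes were higher and 11 to 13 lower. With library size scaling alone 55 were higher and 9 lower (33.3% and 19.4% of all tested genes), with median log2 fold changes of 0.15 over all, 0.17 over large and 0.10 over small subunit genes. glmTreat against 1.2-fold called 2 higher and 0 lower, and 1592 genes in all. With the GC and length offset 23 were higher, with medians of 0.0429 over all and 0.0508 over large subunit genes, and Rpl22l1 changed sign (-0.0757). The causes were not tested.

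Same-numbered libraries did not deviate together over the tested genes (correlations of -0.0118, 0.00505 and -0.077). These values cannot show whether equal numbers mark a shared day or culture, which the labels do not state. The replicate block called 40 higher and 12 lower, and changed no call of the 32 named genes that were tested. The replicate block with the offset called 22 higher, with medians of 0.043 over all and 0.0504 over large subunit genes and Rpl22l1 at -0.0701; Rps25 and Rps2, called with the offset alone, were not called there (edgeR adjusted p 0.0536 and 0.0622).

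With each library left out, 30 (without stretch replicate 3) to 41 genes were higher and 8 (without stretch replicate 2 or static replicate 1) to 16 (without static replicate 3) lower, and 5153 to 6331 of all genes were called. Medians ranged from 0.07 to 0.11 over all, 0.0811 to 0.12 over large and 0.03 to 0.06 over small subunit genes. The summed share ranged from 4.67% to 4.77% under stretch and 4.47% to 4.5% in static cells, and with a wider set that takes in Fau and pseudogenes it was 4.88% under stretch and 4.62% in static cells. The difference in log2 ratio (stretch minus static) ranged from -0.04 to 0.02 for Rpl7l1 to Rpl7, -0.11 to 0.01 for Rpl22l1 to Rpl22, -0.11 to -0.04 for Rpl36al to Rpl36a, -0.15 to 0.79 for Rps27l to Rps27 and -0.13 to 0.88 for Rps27rt to Rps27. The last 2 fell below 0 without static replicate 2. At the depth of the smallest library 40 genes were higher and 12 lower.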
